A study of Mus musculus with 8 samples.

Results

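Lipid droplet coat proteins and the enzymes that empty the droplet were followed through the conversion of mouse 3T3-L1 preadipocytes into fat cells. The group comprises 10 genes: the 5 perilipins Plin1, Plin2, Plin3, Plin4 and Plin5, the droplet fusion protein Cidec, the triglyceride lipase Pnpla2 (ATGL), the hormone-sensitive lipase Lipe, the ATGL activator Abhd5 (CGI-58) and the ATGL inhibitor G0s2. Members were taken by symbol, from the RefSeq accession that the array files attach to each probe. All 10 genes were on the array, through 13 probes, and all 10 were among the 26461 genes and unnamed transcripts that were tested. Cidec had 2 probes and Abhd5 had 3, and for these genes the probe with the highest mean stands for the gene unless another is named.

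3T3-L1 is an established mouse line that differentiates after confluence under a hormone mix. The sh8 line carries a stable short hairpin construct, shRNA-8, that targets slincRAD, a long noncoding RNA, and the WT line was unmodified 3T3-L1. Total RNA of each line was put on 1 array on each of 4 days (-2, 0, +2 and +4), so 8 arrays were compared. Day 0 was confluence, after which both lines received 0.5 mM isobutylmethylxanthine, which raises cyclic AMP, 1 µM of the glucocorticoid dexamethasone and 167 nM insulin. There was no line with a control hairpin, 1 hairpin line stands for the knockdown, and slincRAD itself was not analysed here. Nothing says that the arrays came from separate cultures, so a p-value measures the spread of the line difference over days, or of the day difference over lines, and that spread may be technical.

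A lipid droplet is a store of triglyceride and cholesteryl ester under a single layer of phospholipid, and its surface proteins govern access of lipases to the store. Perilipin 1 covers the large droplets of fat cells, where it holds Abhd5 until protein kinase A phosphorylates it. Abhd5 then activates Pnpla2, which removes the first fatty acid of a triglyceride, Lipe removes the next, and G0s2 blocks Pnpla2. Perilipins 2 and 3 are found in most cell types, perilipin 4 coats small new droplets, perilipin 5 is best known from oxidative tissues such as heart and muscle, and Cidec moves lipid between touching droplets so that they grow.

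Promoter sequence is shown for the members that differed between the lines (Plin3 and Plin4), those with higher values at day +2 than at day 0 in the fit (Plin5, Abhd5 and G0s2), and Plin1 and Cidec, in which the C/EBP motif was found. Plin5 and G0s2 were well above background at days +2 and +4 only, so their choice rests on signals not measured well earlier. The sequences are those of RefSeq on GRCm38.p6, the 250 bases before each start, 5′ to 3′ on the gene's strand. Capitals mark the hexamer AGGTCA, the nuclear receptor hexamer that PPARG binds as a direct repeat, and the C/EBP motif TTGCNNAA, each on either strand.
Plin3 (chr17:56290512-56290761, minus strand): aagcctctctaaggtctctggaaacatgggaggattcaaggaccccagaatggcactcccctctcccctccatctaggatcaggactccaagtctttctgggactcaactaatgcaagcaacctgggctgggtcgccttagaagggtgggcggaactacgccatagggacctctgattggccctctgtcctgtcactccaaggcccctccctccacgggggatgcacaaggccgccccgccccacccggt
Plin4 (chr17:56109783-56110032, minus strand): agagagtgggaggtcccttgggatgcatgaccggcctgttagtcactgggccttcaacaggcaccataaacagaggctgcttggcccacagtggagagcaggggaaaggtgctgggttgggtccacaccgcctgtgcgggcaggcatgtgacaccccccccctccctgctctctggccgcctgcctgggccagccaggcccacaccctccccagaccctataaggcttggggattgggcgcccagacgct
Plin5 (chr17:56117549-56117798, minus strand): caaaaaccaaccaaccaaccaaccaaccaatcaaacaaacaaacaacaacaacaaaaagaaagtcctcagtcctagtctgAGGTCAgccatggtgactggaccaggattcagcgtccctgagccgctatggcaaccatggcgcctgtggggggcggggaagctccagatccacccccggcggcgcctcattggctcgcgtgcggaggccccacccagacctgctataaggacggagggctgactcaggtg
Abhd5 (chr9:122351366-122351615, plus strand): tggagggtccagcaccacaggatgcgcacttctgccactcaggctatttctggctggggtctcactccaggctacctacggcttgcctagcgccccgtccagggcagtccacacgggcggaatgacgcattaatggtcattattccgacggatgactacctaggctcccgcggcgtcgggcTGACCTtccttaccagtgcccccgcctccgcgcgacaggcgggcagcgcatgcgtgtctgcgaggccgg
G0s2 (chr1:193273189-193273438, minus strand): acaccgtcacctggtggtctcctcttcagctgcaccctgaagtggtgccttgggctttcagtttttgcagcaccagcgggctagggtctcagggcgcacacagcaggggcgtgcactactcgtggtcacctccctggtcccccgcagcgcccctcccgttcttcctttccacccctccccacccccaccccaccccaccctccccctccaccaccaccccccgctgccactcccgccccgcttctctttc
Plin1 (chr7:79732777-79733026, minus strand): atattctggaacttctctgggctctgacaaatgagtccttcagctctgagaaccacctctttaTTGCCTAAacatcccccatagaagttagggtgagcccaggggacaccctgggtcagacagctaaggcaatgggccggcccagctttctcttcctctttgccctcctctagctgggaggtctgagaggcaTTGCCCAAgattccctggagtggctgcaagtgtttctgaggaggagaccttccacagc
Cidec, the downstream start (chr6:113434765-113435014, minus strand): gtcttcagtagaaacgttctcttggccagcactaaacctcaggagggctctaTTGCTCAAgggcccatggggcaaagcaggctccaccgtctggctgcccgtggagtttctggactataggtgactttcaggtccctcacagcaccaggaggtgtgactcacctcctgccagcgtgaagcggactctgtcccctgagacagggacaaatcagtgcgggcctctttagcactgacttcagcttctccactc

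The 10 members had 13 promoter windows in that table, from 250 bases before to 50 after the start, since Plin5, Cidec and Lipe had 2 each. The AGGTCA hexamer was in 4 of the 13 windows, those of Plin2, Abhd5 and both of Plin5, against 16.3% of 32851 windows of all genes. The C/EBP motif was in 2, at -187 and -58 from the start of Plin1 and at -198 from the downstream start of Cidec, against 10.8% of all windows. The direct repeat of AGGTCA with 1 base between the copies was in 0 member windows and in 0.0396% of all. The glucocorticoid receptor palindrome and a sterol regulatory element were in 0 member windows, against 0.00913% and 0.234% of all. The cyclic AMP element TGACGTCA was in 0 member windows and 1.79% of all, and its 5-base part TGACG was in 2, Abhd5 and G0s2, against 20.8% of all. A match is a description of letters and no binding was measured. Plin4 and Plin5 are neighbours on chromosome 17 with 0 genes between them, and Plin3 lies on the same chromosome with 9 genes between it and Plin5.

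Values are on a log2 scale, with 0 at each array's 75th percentile of processed intensity, and levels of different genes are not compared because probes differ in brightness. The 75th percentile itself ran from 760 to 1239 intensity units, the share of probes well above background from 64.9% to 81.7%, and no member probe was saturated. Days -2 and 0 lay on the first slide and days +2 and +4 on the second, so induction and slide cannot be told apart. On both slides sh8 took positions 3 and 4 and WT positions 1 and 2, so line and position cannot be told apart. The number of arrays limits the precision. RNA was taken from the whole culture, in which fewer fat cells and less RNA per fat cell cannot be told apart. Adipocyte markers were present, with 7 of 10 well above background on each array of days -2 and 0 and 10 of 10 on each array of days +2 and +4. Their summed intensity, in units of the 75th percentile, was 17.2 and 27.0 in sh8 after induction and 12.1 and 24.2 in sh8 before it. In WT it was 48.6 and 71.4 after induction and 36.6 and 50.7 before it. Lpl and Fabp4 made up most of these sums. The median log2 value of the 10 markers was -4.12 and -3.96 in sh8 and -4.31 and -4.25 in WT at days -2 and 0. At days +2 and +4 that median was -2.99 and -2.66 in sh8 and -2.22 and -0.91 in WT.

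The comparison of sh8 with WT asked how these genes are expressed when slincRAD is targeted. Plin4 and Plin3 were lower in sh8 than in WT, by 4.48-fold and 1.92-fold. No member was called higher in sh8 by the probe that stands for its gene. The other 8, among them both lipases and both regulators of ATGL, did not pass the test. The count of 2 of 10 is below the share of all genes called, which was 27.0% (16.8% higher and 10.3% lower in sh8). Of those calls 62.0% were higher in sh8, or 50.7% with quantile scaling, which moved the median of all genes to 0.02 and called the same number of members. The median difference over the 10 members was -0.23, beside 0.13 over all genes tested.

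Plin4 was measured well above background on every array. It had 0.31, 1.67, -0.91 and -0.33 in sh8 at days -2, 0, +2 and +4, against 2.22, 2.81, 2.13 and 2.23 in WT. The highest sh8 value lay below the lowest WT value, and the distance was widest after induction. On the intensity scale the Plin4 probe read 461 and 606 units in sh8 at days +2 and +4, against 3884 and 3985 in WT. The sh8 minus WT difference was -1.91 at day -2, -1.14 at day 0, -3.05 at day +2 and -2.56 at day +4, the value of day +2 being 8.25-fold. Over the 4 days it was -2.16 ± 0.33 (SE; adjusted p = 0.0184 by limma), or -2.30 relative to the median of all genes.

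Plin3, a perilipin that also sits free in the cytosol and moves onto new droplets, kept a narrow distance. It had 2.65, 3.30, 2.64 and 2.89 in sh8, against 3.45, 4.30, 3.60 and 3.90 in WT, in the order of days. The lines did not overlap, and both were highest at day 0. Its difference was -0.80, -1.0, -0.96 and -1.01 on the 4 days and -0.94 ± 0.09 over them (adjusted p = 0.0110), or -1.08 relative to the median of all genes.

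The calls of Plin3 and Plin4 rest on 3 residual degrees of freedom. Leaving out any 1 array of day 0, +2 or +4, in either line, ended both, with adjusted p from 0.0586 to 0.0681 for Plin3 and from 0.0543 to 0.0806 for Plin4, while their differences stayed between -0.92 and -0.94 and between -1.87 and -2.50. On the first slide alone Plin4 differed by -1.52 and Plin3 by -0.90 (adjusted p = 0.121 for each, with 0 of all genes called). On the second slide alone the differences were -2.80 for Plin4 (adjusted p = 0.0302) and -0.98 for Plin3 (adjusted p = 0.0367). Each fit of a single slide left 1 residual degree of freedom and used arrays of the full fit.

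Plin2, the perilipin of most non-fat cells, had 3.18, 3.25, 2.31 and 3.03 in sh8, against 3.28, 3.73, 3.30 and 3.46 in WT. The lines did not overlap, but the distance was small beside its variation among days. The difference of -0.50 ± 0.16 did not pass (adjusted p = 0.0807). The per-day value was widest at day +2, at -0.99, and narrowest at day -2, at -0.10.

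Plin1 had -5.82, -5.88, -5.28 and -4.34 in sh8, against -6.04, -5.40, -4.17 and -2.50 in WT. It was not well above background in sh8 at days -2 and 0, nor in WT at day -2, so both lines began at the edge of detection. The lines parted with time, and the difference was 0.22 at day -2, -0.48 at day 0, -1.10 at day +2 and -1.84 at day +4, the value at day +4 being 3.59-fold. On the intensity scale the Plin1 probe read 37.5 units in sh8 at day +4, against 150.04 in WT. Over the 4 days the difference was -0.80 ± 0.35 (adjusted p = 0.148). On the second slide alone, with 1 residual degree of freedom, it was -1.47 (adjusted p = 0.0446).

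Cidec is the member on which the array disagreed with itself, and each of its probes is described. The probe with the higher mean (A_55_P1969128) had -6.24, -5.14, -4.26 and -3.81 in sh8, against -5.90, -6.72, -5.72 and -4.30 in WT. It was not well above background in sh8 at day -2 and in WT at day 0, and its sh8 values were higher on the other 2 days by 1.46 and 0.49. The other probe (A_55_P1969131) had -8.04, -7.65, -5.23 and -4.41 in sh8, against -8.30, -6.89, -3.10 and -0.89 in WT, and was well above background at days +2 and +4 in both lines. By this probe sh8 was lower than WT by -2.13 at day +2 and by -3.52 at day +4, an 11.5-fold difference, with 35.6 intensity units in sh8 and 457 in WT on that day. Over the 4 days the differences were 0.80 ± 0.36 by the first probe (adjusted p = 0.156) and -1.54 ± 0.65 by the second (adjusted p = 0.135), so neither passed and their signs were opposite. Both probes carry a Cidec accession. In settings chosen after the data were seen, with normexp background correction the day +4 difference was 0.077 by the first probe and -2.62 by the second, and with quantile scaling it was 0.22 and -3.92.

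**Figure D1:**
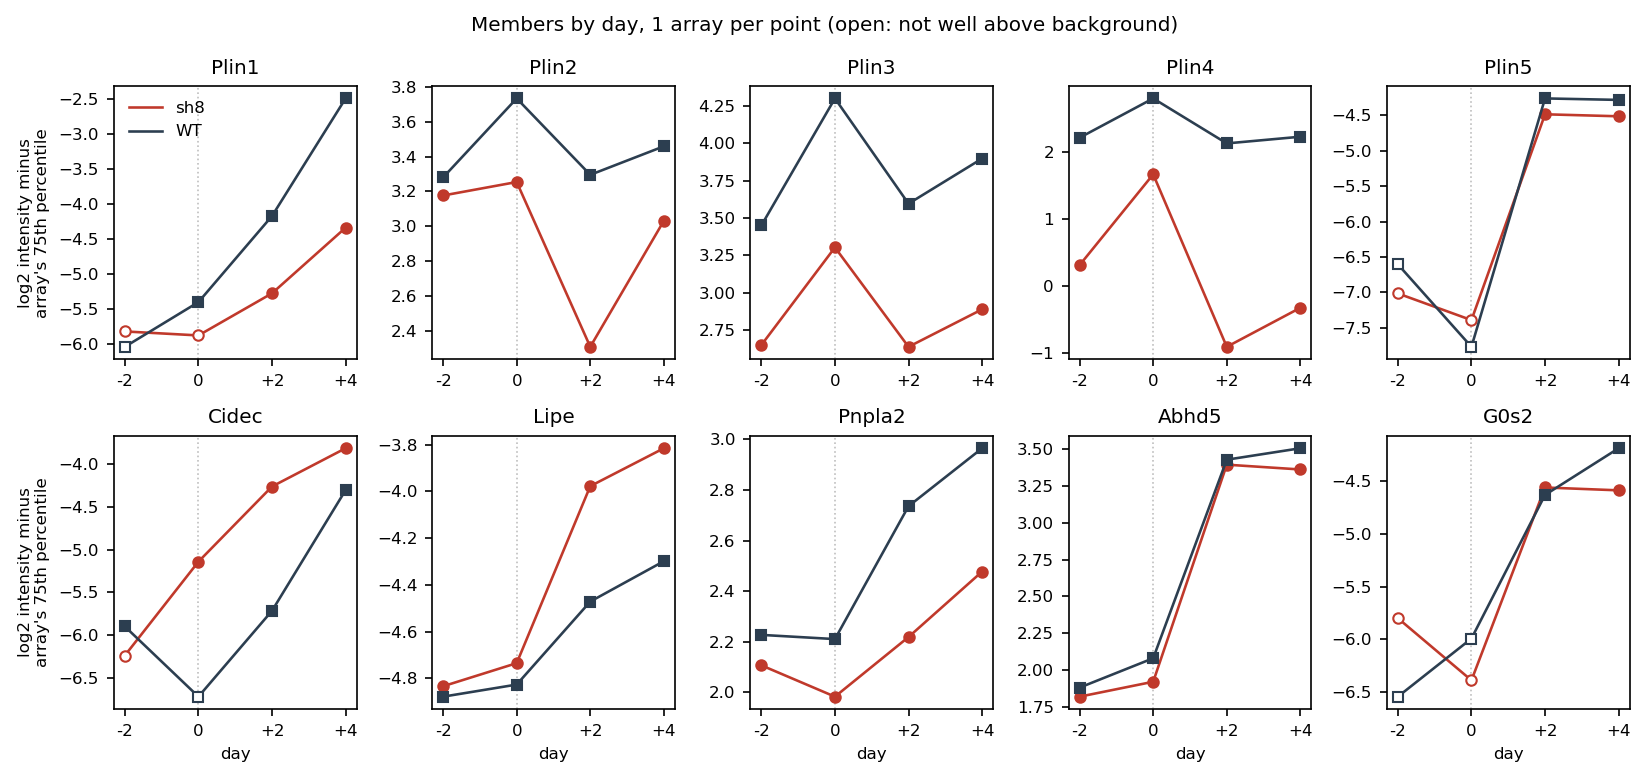
Log2 processed intensity minus the array's 75th percentile (vertical axes, scaled for each gene) against day (horizontal axes, days -2, 0, +2 and +4) for the 10 members, with sh8 as red circles and WT as dark squares. Each point is 1 array, open points were not well above background and the dotted line marks day 0. Plin3 and Plin4 lie lower in sh8 at every day, Plin1 parts with time to -4.34 in sh8 against -2.50 in WT, and Plin5, Abhd5 and G0s2 step up between days 0 and +2 in both lines.

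**Figure D2:**
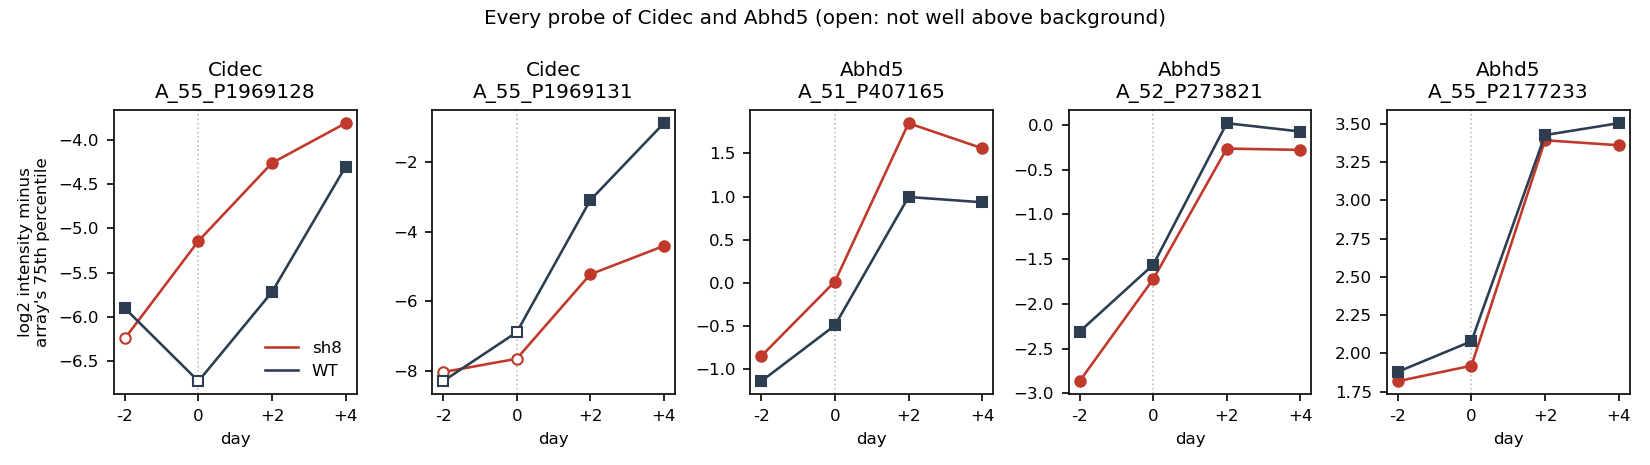
Log2 processed intensity minus the array's 75th percentile (vertical axes, scaled for each probe) against day (horizontal axes) for the 2 probes of Cidec and the 3 of Abhd5, with sh8 as red circles and WT as dark squares. Each point is 1 array and open points were not well above background. At day +4 the second Cidec probe stood at -4.41 in sh8 and -0.89 in WT, while the first stood at -3.81 in sh8 and -4.30 in WT.

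Pnpla2, the lipase that starts triglyceride breakdown, had 2.11, 1.98, 2.22 and 2.48 in sh8, against 2.23, 2.21, 2.74 and 2.97 in WT. It was a little lower in sh8 on each day, by 0.12 to 0.52, but the lines overlapped. The difference over the 4 days was -0.34 ± 0.11 (adjusted p = 0.0826).

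Lipe, the hormone-sensitive lipase, had slightly higher point values in sh8 and did not pass. It had -4.83, -4.74, -3.98 and -3.82 in sh8, against -4.88, -4.83, -4.47 and -4.30 in WT. The lines were close before induction, and sh8 exceeded WT by 0.49 at day +2 and 0.48 at day +4. Over the 4 days the difference was 0.28 ± 0.13 (adjusted p = 0.157).

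Abhd5, the activator of ATGL, had 1.82, 1.92, 3.39 and 3.36 in sh8, against 1.88, 2.08, 3.43 and 3.51 in WT. These values nearly coincided, with a difference of -0.10 ± 0.09 (adjusted p = 0.415). Its probe A_51_P407165 had -0.85, 0.02, 1.85 and 1.56 in sh8, against -1.14, -0.49, 1.00 and 0.93 in WT, a difference of 0.57 ± 0.12 (adjusted p = 0.0324). Its probe A_52_P273821 had -2.86, -1.72, -0.26 and -0.28 in sh8, against -2.31, -1.56, 0.02 and -0.07 in WT, a difference of -0.30 (adjusted p = 0.0970). The 3 probes therefore did not give Abhd5 a single direction between the lines.

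G0s2, the ATGL inhibitor, and Plin5, a perilipin that binds both ATGL and Abhd5, were well above background only at days +2 and +4. G0s2 then had -4.56 and -4.59 in sh8, against -4.63 and -4.19 in WT. Plin5 then had -4.49 and -4.51 in sh8, against -4.26 and -4.28 in WT. The lines lay close for both genes, and the fitted differences were 0.0048 ± 0.23 for G0s2 (adjusted p = 0.989) and -0.12 ± 0.16 for Plin5 (adjusted p = 0.580).

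On a single day a pair of arrays has no test, and members with a log2 difference of 1 or more were counted. At day -2 Plin4 passed that size as lower, and 0 members did as higher, where 4.75% of all genes were lower and 5.52% higher by that size (10.3% in all). At day 0 Plin4 was lower and Cidec (first probe) higher, at least 1.49-fold because the WT array was not well above background, beside 4.90% lower and 6.90% higher among all genes (11.8% in all). At day +2 Plin1 and Plin4 were lower and Cidec (first probe) higher, beside 5.51% lower and 14.1% higher (19.6% in all). At day +4 Plin1, Plin3 and Plin4 were lower and 0 members higher, beside 5.24% lower and 9.54% higher (14.8% in all). The second Cidec probe, which does not enter these counts, differed by -2.13 at day +2 and -3.52 at day +4. The median difference over the 10 members was -0.11, -0.31, -0.37 and -0.41 at days -2, 0, +2 and +4. Over all genes it was 0.10, 0.08, 0.15 and 0.16. The member medians at days -2 and 0 include pairs in which neither array was well above background.

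**Figure D3:**
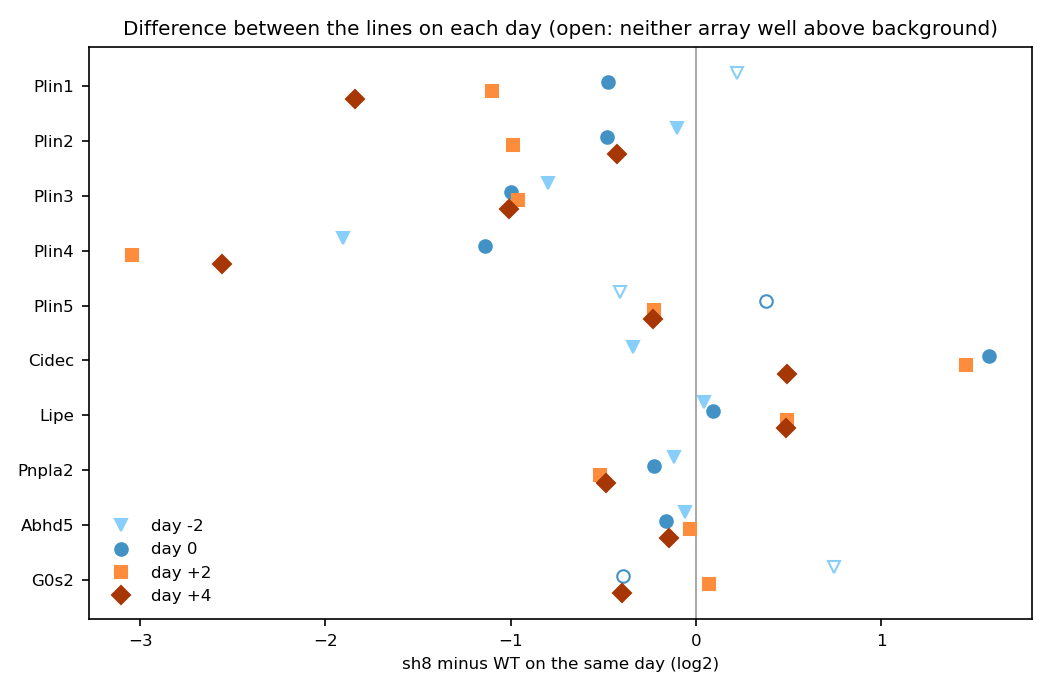
The sh8 minus WT difference on the same day in log2 units (horizontal axis) for the 10 members (vertical axis), with 1 symbol for each of days -2, 0, +2 and +4. Open symbols mark days on which neither array was well above background. Plin4 runs from -1.14 to -3.05, Plin3 stays within -0.80 to -1.01, and the first Cidec probe is at 1.46 at day +2, where both arrays were well above background. The second Cidec probe, at -2.13 on that day with both arrays well above background, is not drawn.

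The comparison of days asked how the members change in the course of differentiation, in both lines together. Between confluence and day +2 Abhd5 rose and Plin3 fell, and Plin5 and G0s2, which passed the filter on dim probes through days +2 and +4 only, were also higher. Over the whole course 7 members were higher at days +2 and +4 than at days -2 and 0, namely Plin1, Plin5, Cidec, Lipe, Pnpla2, Abhd5 and G0s2, and Plin2, Plin3 and Plin4 did not pass. Between days -2 and 0, and between days +2 and +4, which lay on 1 slide each, 0 members passed.

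At day 0 against day -2, 0 of 10 members passed and 0% of all genes were called by limma, with 2 members and 6712 genes at an unadjusted p under 0.05. Plin3 was 0.75 ± 0.13 higher at day 0 (adjusted p = 0.0719), and passed with normexp background correction (adjusted p = 0.0267). Plin5 differed by -0.77 (adjusted p = 0.129) at values not well above background. Plin1 differed by -0.06 in sh8 and 0.64 in WT between these days.

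At day +2 against day 0, 4 of 10 members passed, 3 higher and 1 lower, beside 11.9% of all genes (9.00% higher and 2.89% lower). Plin5 and G0s2 passed the filter on dim probes through days +2 and +4 only, so that they had to differ, and their values and the count of 4 are descriptions. Of the calls among all genes 75.7% were higher, or 62.1% with quantile scaling and 54.0% with normexp. Plin5 was at least 2.25-fold higher, a bound because it was not well above background on either array of day 0, with a fitted change of 3.21 ± 0.22 (adjusted p = 0.00686). Its probe read 38.7 intensity units in sh8 and 46.2 in WT at day +2, against 5.59 in sh8 and 4.27 in WT at day 0. In each line the Plin5 value at day +4 was within 0.03 of that at day +2.

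Abhd5 was 1.41 ± 0.12 higher at day +2 than at day 0, which is 2.66-fold (adjusted p = 0.0100), and the rise was 1.47 in sh8 and 1.35 in WT. G0s2, which had to differ because of the filter on dim probes, was at least 1.93-fold higher. Its fitted change of 1.59 ± 0.32 (adjusted p = 0.0426) is a description. Quantile scaling (1.20, adjusted p = 0.0993), normexp (0.35, adjusted p = 0.134) and no filter on dim probes (adjusted p = 0.0579) each ended the call of G0s2. Plin3 fell by 0.69 ± 0.13, with changes of -0.67 in sh8 and -0.70 in WT (adjusted p = 0.0378), and lost its call with no filter (adjusted p = 0.0582). Plin4 changed by -2.58 in sh8 and -0.67 in WT and did not pass (-1.63 ± 0.47, adjusted p = 0.0890). Leaving out 1 array moved the count of 4 to between 0 and 3, and the Plin3 call was lost in each case (adjusted p from 0.0556 to 0.200). Without an array of day -2 the Plin5, Abhd5 and G0s2 calls held, without one of day +4 those of Plin5 and Abhd5, without the sh8 array of day 0 that of Plin5, and without the WT array of day 0 or either array of day +2 no call held.

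At day +4 against day +2, 0 of 10 members passed and 0% of all genes were called by limma, with 1 member and 1437 genes at an unadjusted p under 0.05. That member was Plin1, which was 0.94 higher at day +4 in sh8 and 1.68 higher in WT (1.31 ± 0.50 over both, adjusted p = 0.839). The first Cidec probe was 0.45 higher in sh8 and 1.41 higher in WT. Plin5, Abhd5 and G0s2 differed by -0.02, 0.02 and 0.21 between these days. The point estimates of Plin1 and Cidec were positive in both lines.

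After induction (days +2 and +4) against before (days -2 and 0), 7 of 10 members were higher and 0 lower, beside 36.3% of all genes (26.8% higher and 9.53% lower). Of those calls 73.7% were higher, or 57.0% with quantile scaling and 54.3% with normexp. The members' median change was 1.08, beside 0.17 over all genes. Plin5 and G0s2 passed the filter on dim probes through days +2 and +4 only, so that they had to differ, and the count and median are descriptions. Plin5 was at least 2.56-fold higher (2.81 ± 0.16, adjusted p = 0.00135), Abhd5 2.82-fold (1.50 ± 0.09, adjusted p = 0.00141) and G0s2 at least 2.38-fold (1.69 ± 0.23, adjusted p = 0.00706). The Abhd5 call held on leaving out each array and under each scaling tried. The other Abhd5 probes gave 1.95 and 1.96 (adjusted p = 0.00164 and 0.00126).

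Plin1 was 1.71 ± 0.35 higher after induction (adjusted p = 0.0210), with all 4 later values above all 4 earlier ones. Cidec was 1.48 ± 0.36 higher by the first probe (adjusted p = 0.0329) and at least 5.05-fold higher by the second, which was not well above background on any earlier array and passed the filter through the later days only, so that it had to differ. Lipe was 0.68 ± 0.13 higher (adjusted p = 0.0160), a change of 1.60-fold, and Pnpla2 0.47 ± 0.11 higher (adjusted p = 0.0319), or 1.38-fold. With quantile scaling the calls of Plin1 (1.29, adjusted p = 0.0727), Cidec (first probe, 1.06, adjusted p = 0.0632) and Lipe (0.36, adjusted p = 0.0638) were lost, and with normexp those of Plin1 (0.53, adjusted p = 0.109) and Lipe (0.19, adjusted p = 0.0873). Leaving out 1 array in turn, with 3 to 6 members called, also ended calls among these 4 genes. Plin1 lost its call without an array of day 0 or +2 in either line or the WT array of day +4 (adjusted p from 0.0528 to 0.0749), and Lipe without the sh8 array of day 0, +2 or +4 (0.0529 to 0.0686). Pnpla2 kept its call only without the sh8 array of day -2 (0.0566 to 0.117 otherwise). Cidec (first probe) kept its call only without the sh8 array of day 0 or the WT array of day -2 (0.0519 to 0.114 otherwise).

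Plin2 (-0.34 ± 0.16, adjusted p = 0.168), Plin3 (-0.17 ± 0.09, adjusted p = 0.200) and Plin4 (-0.97 ± 0.33, adjusted p = 0.0773) did not pass. Plin4 passed without the WT array of day 0 (-1.31, adjusted p = 0.0389).

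Several markers of other cell types were higher on the second slide, and others were not. Of 10 lung epithelium markers 9 were on the array, and all 9 were well above background on each array of days +2 and +4, against 5 to 7 on those of days -2 and 0. Their summed intensity, in units of the 75th percentile, was 28.0 and 34.9 in sh8 after induction and 8.73 and 10.7 before it, and 22.1 and 28.6 in WT after induction and 10.7 and 11.1 before it. Lamp3 and Cyp2f2 made up most of these sums. In the order of days Lamp3 had 2.80, 2.65, 2.68 and 3.04 in sh8 and 3.35, 3.22, 3.54 and 3.71 in WT. Cyp2f2 had 0.22, 1.92, 3.43 and 3.91 in sh8 and -0.83, 0.02, 1.57 and 2.42 in WT. The surfactant protein gene Sftpc had 1.62 and 1.57 in sh8 and 1.03 and 1.53 in WT at days +2 and +4, and was not well above background at days -2 and 0. Markers of red blood cells summed to 2.67 to 3.41 in sh8 after induction and 0.556 to 0.668 before it, and to 2.01 to 2.34 in WT after induction and 0.357 to 0.361 before it. Macrophage markers summed to 7.46 to 8.32 in sh8 after induction and 7.22 to 7.26 before it, and to 5.45 to 5.70 in WT after induction and 5.06 to 5.81 before it. That sum is carried by Itgam, and 9 of 9 macrophage markers were well above background on the later arrays, against 7 of 9 on the earlier ones. Tyrobp had -2.82 and -3.05 in sh8 and -3.55 and -3.74 in WT on the log2 scale at days +2 and +4, and was not well above background before. Aif1, of the same list, was lower at the later days. It had -0.62 and -0.86 in sh8 and -1.49 and -1.49 in WT at days +2 and +4. At days -2 and 0 it had -0.54 and 0.02 in sh8 and -1.16 and -0.79 in WT. Of 6 muscle markers on the array, 3 to 5 were well above background after induction and 3 before it, with sums of 0.615 to 0.699 in sh8 after induction and 0.252 to 0.764 before it, and of 0.518 to 0.676 in WT after induction and 0.174 to 0.407 before it. The heart myosin gene Myh6 had -1.13 and -1.43 in sh8 and -1.57 and -1.14 in WT at days +2 and +4, against -4.61 and -4.35 in sh8 and -4.88 and -4.77 in WT at days -2 and 0. Tnnt2, also a muscle marker, had -0.64 and -2.95 in sh8 and -1.68 and -3.80 in WT at days -2 and 0. At days +2 and +4 it had -3.14 and -3.40 in sh8 and -3.85 and -3.38 in WT. Actn2 was not well above background on any array. Of 5 hepatocyte markers on the array, 1 to 2 were well above background after induction and 2 before it. The hepatocyte marker Ttr had -4.17 and -3.43 in sh8 and -4.45 and -4.11 in WT at days -2 and 0. It was not well above background at days +2 and +4. The part of transcripts of other cell types in the higher values of Plin5, Abhd5, G0s2 and the other members at days +2 and +4 was not tested.

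**Figure D4:**
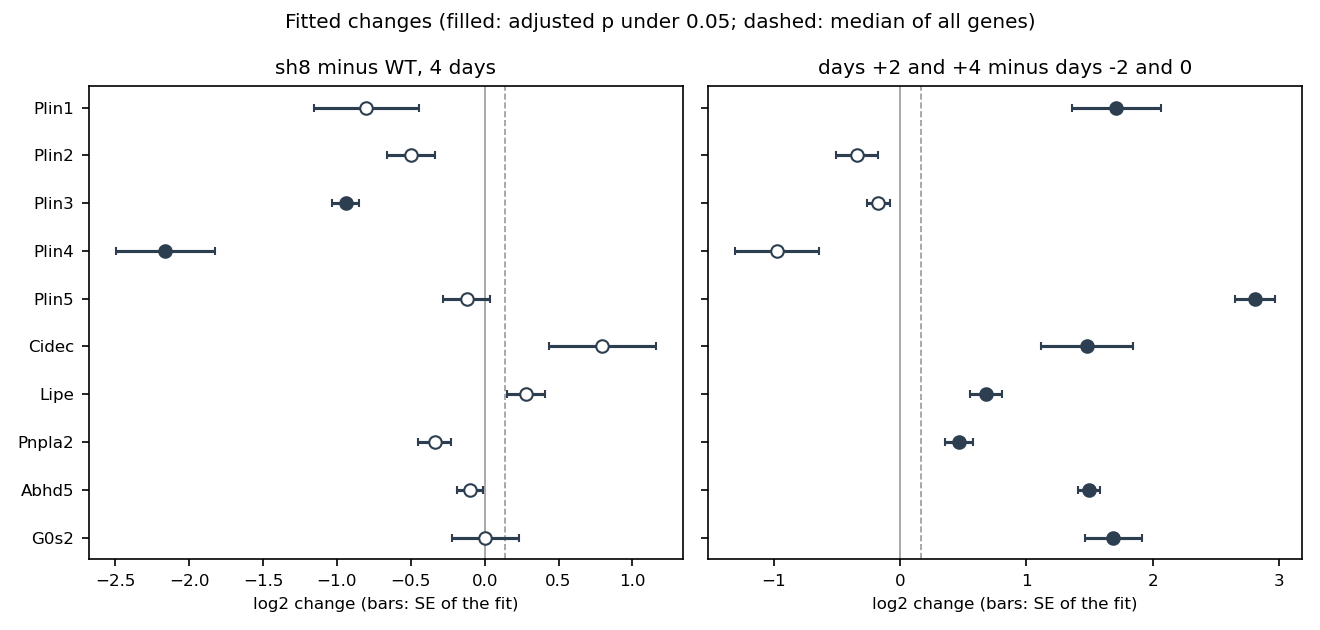
Fitted log2 changes (horizontal axes) of the 10 members (vertical axis) for sh8 minus WT over the 4 days, left, and for days +2 and +4 minus days -2 and 0, right, with bars showing the SE of the fit. Filled points passed an adjusted p of 0.05 and the dashed lines mark the median of all genes, 0.13 on the left and 0.17 on the right. Plin3 and Plin4 are filled on the left and 7 members are filled on the right.

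Whether the change after induction differed between the lines was tested as the interaction of line with period. For this, 0 of 10 members passed and 0% of all genes were called by limma, with 3 members and 5268 genes at an unadjusted p under 0.05. Those 3 were Plin1 (-1.34 ± 0.39, adjusted p = 0.210), Plin4 (-1.28 ± 0.36, adjusted p = 0.202) and Lipe (0.42 ± 0.14, adjusted p = 0.231), where a negative value is a smaller gain or larger loss in sh8. The first Cidec probe gave 0.35 (adjusted p = 0.823). The second gave -2.58 ± 0.64 (adjusted p = 0.180), on values before induction that were not well above background. For Abhd5 the interaction was 0.02 ± 0.15. It was -0.21 ± 0.32 for Plin5 and -0.34 ± 0.47 for G0s2. The values of Plin5 and G0s2 before induction were not well above background, so their interaction rests on signals that were not measured well.

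From day 0 to day +4 the WT line gained 7.48-fold in Plin1, on a day 0 value well above background. Abhd5 gained 2.72-fold in sh8 and 2.69-fold in WT, Lipe 1.89-fold in sh8 and 1.44-fold in WT, and Pnpla2 1.41-fold in sh8 and 1.69-fold in WT. Plin4 at day +4 stood at 0.250 of its day 0 level in sh8 and at 0.672 in WT. These are ratios of single arrays with no test.

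Some members had like profiles. Over the 8 arrays Pearson's r was 0.962 between Abhd5 and G0s2, 0.957 between Plin5 and Abhd5, and 0.919 between Plin5 and G0s2. It was 0.910 between Plin3 and Plin4, 0.874 between Plin2 and Plin4, and 0.816 between Plin2 and Plin3. Plin1 went with Pnpla2 (0.949), and the lowest r of any pair was -0.66, between Plin4 and Lipe. Plin5 and G0s2 were not well above background before induction and passed the filter on dim probes through days +2 and +4 only. Their step, and with it a high r with a gene that rises, was set by that filter. These r values share the same 8 arrays, 2 lines and 2 slides and are descriptions.

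Among 7522 named genes with an SD of at least 0.5, the 5 most like Plin4 were Osbpl1a (r = 0.991), Hsdl1 (0.985), Ddah2 (0.985), Manba (0.979) and Exoc4 (0.978). Those most like Plin1 were Ugt2b37 (0.970), the fatty acid transporter Cd36 (0.961), Stim1 (0.959), the adipokine Adipoq (0.958) and Olfr52 (0.956). Plin2 was closest to Comtd1 (0.957), Kalrn (0.944), Mgmt (0.914), Pced1a (0.902) and Adh7 (0.901). Pnpla2 was closest to Tspyl4 (0.981), Hk3 (0.979), H2bc18 (0.970), Shq1 (0.967) and Cyp21a1 (0.962). G0s2 was closest to Atg9b (0.988), the endothelial receptor gene Tek (0.986), Afap1l1 (0.986), Olfr799 (0.984) and Dgat2 (0.984), which makes triglyceride. The G0s2 and Adipoq values before induction were not well above background. Nor were those of Plin1 in sh8 at days -2 and 0 and in WT at day -2. These are descriptions of 8 arrays, and no shared function was examined.

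Other genes of the droplet and of lipolysis were read from 3 lists. Of 25 other droplet proteins 23 were tested, and 3 were higher and 4 lower in sh8 than in WT, with a median of -0.09. Bscl2 (seipin, which organises droplet birth; 0.82), its partner Tmem159 (0.60) and the droplet enzyme Hsd17b13 (0.78) were higher. Lower were the sterol enzyme Nsdhl (-1.0), Aup1 (-0.62), Pcyt1a (-0.46), which limits phosphatidylcholine synthesis, and the small GTPase Rab18 (-0.36). The named genes therefore did not share a direction.

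Of 15 other neutral lipid hydrolases 14 were tested, and 3 were higher and 2 lower in sh8, with a median of -0.05. Ces1f (1.76), Pnpla3 (1.35, well above background on 5 of 8 arrays) and Mgll (0.78), which splits monoglycerides, were higher. The phospholipase Pnpla8 (-0.80) and the cholesteryl ester hydrolase Nceh1 (-0.70) were lower. Of 27 genes that signal to lipolysis or handle its products 24 were tested, with 2 higher, Prkaa2 (an AMP kinase subunit, 1.08) and Adcy6 (an adenylyl cyclase, 0.44). The 3 lower were the fatty acid carrier Fabp5 (-1.47), the cyclic GMP kinase gene Prkg1 (-1.01, well above background on 6 of 8 arrays) and the natriuretic peptide clearance receptor Npr3 (-0.65), and the median was -0.09. These shares of 7 of 23, 5 of 14 and 5 of 24 stand beside the 27.0% of all genes.

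Between days 0 and +2 the signalling genes had 5 higher and 1 lower of 24, beside 9.00% higher and 2.89% lower among all genes. Among those higher were the cyclic AMP phosphodiesterases Pde3b (1.76) and Pde4d (1.55) and the glycerol channel Aqp7 (1.07). The niacin receptor Hcar2 is among the 5, but passed the filter through days +2 and +4 only and had to differ, and its signal at day +2 gave no bound above 1. The insulin receptor substrate Irs1 was lower (-1.52). Among the hydrolases Mgll was higher (0.86), and Nceh1 (-1.07), Abhd4 (-1.04), Pnpla7 (-0.90) and Lipa (-0.71), the lysosomal acid lipase, were lower. Of the droplet proteins Hsd17b11 was lower (-0.97) and 0 were higher.

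After induction against before, the signalling list had 7 higher and 3 lower, the droplet list 5 higher and 6 lower and the hydrolase list 5 higher and 5 lower, beside 26.8% higher and 9.53% lower among all genes. The 7 include Hcar2, which passed the filter on dim probes through days +2 and +4 only, so that it had to differ and that count is a description. The list medians were 0.22, -0.0045 and -0.0038, against 1.08 for the 10 members. In the signalling list Pde3b (1.73), Pde4d (1.45) and Aqp7 (1.32) were higher, and Irs1 (-1.44) and Npr3 (-1.10) lower. In the droplet list Hilpda, an ATGL inhibitor, (1.44), Mettl7a1 (1.42), Cideb (0.96), a relative of Cidec, and Aifm2 (0.53) were higher, and Ubxn8 (-0.67) and Ldah (-0.47) lower. In the hydrolase list Pnpla3 (1.56), Ces1f (1.20) and Mgll (0.65) were higher, and Nceh1 (-0.98), Pnpla7 (-0.91) and Pnpla6 (-0.68) lower. In the comparisons of day 0 with day -2 and of day +4 with day +2, and in the interaction, 0 members of each list passed by limma.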

How the data were processed

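The data are 8 Agilent 1-colour arrays, although the series description names Affymetrix. Per the file headers, the scanner software was Agilent Feature Extraction 11.0.1.1. The processed intensity that the authors deposited is background-subtracted and not scaled between arrays. The authors' deposited value table is on a log2 scale with column medians of 6.39 (Pearson's r with its own array from 0.994 to 1.00), and served as an alternative, its derivation being not given in the sources used here. Of 44397 spots per array 1377 controls were left out, repeat spots were averaged to 39429 probes, and 46 probes with an outlier flag were dropped. RefSeq accessions without versions named 27234 probes through RefSeq of GRCm38.p6 and left 12195 unnamed. The file headers name mm9, so no coordinate was read from the arrays.

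Values were log2 processed intensity minus the array's 75th percentile, kept where well above background on at least 2 of 8 arrays, with the probe of highest mean for each gene. Tests used limma 3.58.1 (lmFit, eBayes) in R 4.3.3 with data.table, version 1.17.8, with day as 4 levels plus line (3 residual degrees of freedom), or with line by period added (2), over 26461 genes and transcripts, of which 17548 are named. P-values were adjusted by Benjamini-Hochberg (threshold 0.05), and the procedure was tested on simulated data. Where no array of a group showed a gene well above background, its fold is a bound, taken against the lowest signal well above background. Alternatives were quantile scaling, normexp (offset 50, on the median signal because the files hold no mean signal), the authors' table, other filters, the mean of a gene's probes, other probes, slide as a block, each slide alone and leaving out each array. Each Cidec probe under each scaling was added after seeing the data. All 10 members are named, with up to 6 genes past the threshold from each other list by lowest p, and the 5 genes most alike for Plin1, Plin2, Plin4, Pnpla2 and G0s2. Among the list genes, 1 that the rule names is left out of the text. The members and lists were chosen with earlier results of these data known. Promoters came from RefSeq and were searched with Python 3.11.15.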

Additional observations from a re-analysis of the deposited data

How the results depend on the processing

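Of the members called, the line comparison had 2 under each scaling, each filter and the mean of probes, except 3 with all 8 arrays required, 2 with slide as a block, 0 on the first slide alone, 3 on the second, and 0 to 2 on leaving out 1 array. For day 0 against day -2 the count of 0 became 1 with normexp and 1 with all 8 arrays required, and was 0 to 0 on leaving out 1 array. For day +2 against day 0 the count of 4 became 2 with no filter and 2 with all 8 arrays required (6 members tested), and 0 to 3 without 1 array. After against before induction the count of 7 became 4 with quantile scaling, 4 with the authors' table and 3 with all 8 arrays required, and 3 to 6 without 1 array. For day +4 against day +2 and for the interaction, counts were 0 under each alternative, 0 to 0 without 1 array. The cause of these shifts was not tested, beyond the fewer arrays or genes in some fits.

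Signs turned only for small or probe-dependent differences. G0s2, sh8 minus WT, was -0.25 with quantile scaling, -0.12 with normexp, -0.25 with the authors' table and -0.16 on the second slide alone, and -0.24 to 0.14 without 1 array. Abhd5 was 0.0018 with quantile scaling, 0.0016 with the authors' table, 0.056 as the mean of its probes and 0.57 by probe A_51_P407165 (adjusted p = 0.0324), which would be a further call, higher in sh8. Cidec was -0.37 as the mean of its probes and -1.54 by its other probe, and its interaction was -1.11 and -2.58 by the same rules and -0.61 to 1.31 without 1 array. Over all genes, calls between the lines were 79 without an array of day 0, 0 without one of day +2 or +4, 0 on the first slide and 4208 without one of day -2, against 7152. Between days 0 and +2 the count of 3145 was 1950 with quantile scaling, 1963 with the authors' table and 0 to 2510 without 1 array. Day 0 against day -2 gave 1746 with normexp, 1669 with all 8 arrays required and 10 with the authors' table, against 0, day +4 against day +2 gave 1 with quantile scaling and 1 with the authors' table, and the interaction gave 1119 with normexp and 1119 with all 8 arrays required. After against before induction it was 4818 to 7110 without 1 array, against 9606. No pairing beyond that of day was possible because every array has the replicate number 1, and the lines were already compared within days by the day term of the model. Plin5, G0s2, Plin1 and the second Cidec probe lay near or under background before induction, so their early values have only a bound.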
